A study of Mus musculus with 18 samples.

Results

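Gene expression in mouse salivary gland stroma was compared between day 23 and day 8 after an adenovirus was delivered into the gland. The comparison takes every library labelled day 23 and every library labelled day 8, which is 6 of the 18 libraries in the series, 3 per time point. The series follows gp38+ cells, the stromal fraction that carries podoplanin, through the formation of ectopic lymphoid tissue, and its other groups are uninfected glands and glands taken at 3 hours, day 1 and day 2. All mice were wild-type Balb/c, aged 8 to 12 weeks, and each library came from a mouse of its own. The day 23 group is replicates 7, 8 and 9, and the day 8 group is replicates 1, 2 and 3. Both groups had the same procedure: replication-defective adenovirus 5 was introduced through the duct of the submandibular gland, and gp38+ cells were then sorted by flow cytometry. No group was cannulated without virus, so the groups differ in time after a combined procedure, and the gp38+ gate does not by itself separate fibroblasts from other cells that carry podoplanin.

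A replication-defective adenovirus infects cells of the gland once and sets off an innate response followed by lymphocyte infiltration. Fibroblasts of inflamed tissue are known to divide, to switch on chemokines and cytokines that hold lymphocytes, and to remodel the matrix, while fibroblasts of undisturbed connective tissue express surface and matrix genes such as Cd34 and Clec3b. The study's title names the histone demethylase KDM6B, which removes the repressive methyl marks on lysine 27 of histone H3.

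The counts per gene summed to 6017781, 14565048 and 4585868 reads at day 23, and to 12033146, 14041925 and 15234431 reads at day 8. The day 23 libraries varied more among themselves: the median SD of log2 CPM (read counts scaled to library size) over genes was 0.440 at day 23 and 0.187 at day 8. Pearson's r across genes was 0.891 to 0.914 among day 23 libraries, 0.976 to 0.983 among day 8 libraries and 0.885 to 0.936 between the groups. Counts in 2015 sensory receptor genes, which stroma is not known to express, were 10.2 to 16.1 CPM at day 23 and 15.0 to 20.6 CPM at day 8. Stromal transcripts were present in every library, with Pdgfra, the platelet-derived growth factor receptor of fibroblasts, at 1634, 1525 and 1217 CPM at day 23, against 1265, 964 and 1033 CPM at day 8. Pdpn, which encodes gp38 itself, averaged 57.0 ± 15.0 CPM at day 23 and 60.2 ± 8.81 CPM at day 8 (SD, n = 3 each), and the groups overlapped. The share of counts on all genes of the mitochondrial chromosome was 9.74% ± 1.85 at day 23 and 14.6% ± 1.56 at day 8 (SD, n = 3 each). Its difference gave p = 0.1 in a two-sided exact permutation test, the smallest p that 3 against 3 allows, and 0.4 after adjustment over 4 such shares. A list of 13 of these genes, mt-Co1 among them, did not show that difference. The list held only a small part of these counts, so it cannot stand for the whole share. Its summed level overlapped, at 9380 to 15931 CPM at day 23 and 8771 to 12112 CPM at day 8. Of 12 members tested for differential expression 0 were called, and the median log2 fold change was 0.23.

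Of 14713 genes tested with edgeR's quasi-likelihood test, 708 passed a Benjamini-Hochberg adjusted p of 0.05, which is 4.81%. At day 23, 270 genes (1.84%) were higher and 438 (2.98%) were lower, and the median log2 fold change of all genes tested was 0.03. These 2 shares are the background for counts of list members called in this fit of the 6 libraries. Adjusted p-values below come from that test, log2 fold changes are day 23 over day 8 with their SE, and CPM values are scaled by TMM. An unadjusted p under 0.05 was reached by 3315 of the 14713 genes, the background for unadjusted counts below. Other fits have other backgrounds. DESeq2 called 817 of 14713 genes higher and 958 lower, and edgeR without day 8 replicate 2 called 6 of 15152 higher and 41 lower. The CPM of the 2 groups did not overlap for 1900 genes (12.9%) higher and 2377 (16.2%) lower at day 23. Groups without overlap are therefore common among all genes tested. Scaling by library totals alone gave 139 genes higher and 560 lower, so that 19.9% of called genes were higher in place of 38.1%. The number of calls changed whichever library was left out, and it fell furthest when that was a day 8 library. It was 79 without day 8 replicate 1, 47 without day 8 replicate 2, 105 without day 8 replicate 3, 384 without day 23 replicate 9, 1267 without day 23 replicate 8 and 1447 without day 23 replicate 7. Among genes called both in the full set and in one of these smaller sets, none had the opposite sign. Each smaller set holds all but 1 of the same libraries, so a reversal among such genes could hardly occur. Of the 135 genes chosen for naming by rule, 93 were called, and 21 of them were called whichever single library was left out. Among these 21 are Angptl1, C7, Ccnd1, Cenpf, Cldn4, Epcam, Hba-a2, Hspa1a, Hspa1b, Hsph1, Krt7, Ltf, Ly6d, Mki67, Racgap1, Sqle, Tfcp2l1, Tnc, Top2a and Tpx2. For any called gene below that is not one of these, the highest adjusted p over the 6 leave-one-out fits is printed beside it or with its group. Without day 8 replicate 2 no member was called in the lists of MHC class II, inflammatory cytokine, fibrillar collagen, matrix-remodelling, contractile, resting fibroblast, Wnt and TGF-beta, immediate-early, glycolysis, complement, endothelial, mural, myeloid, mast cell, glial and ion transport genes described below.

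**Figure D1:**
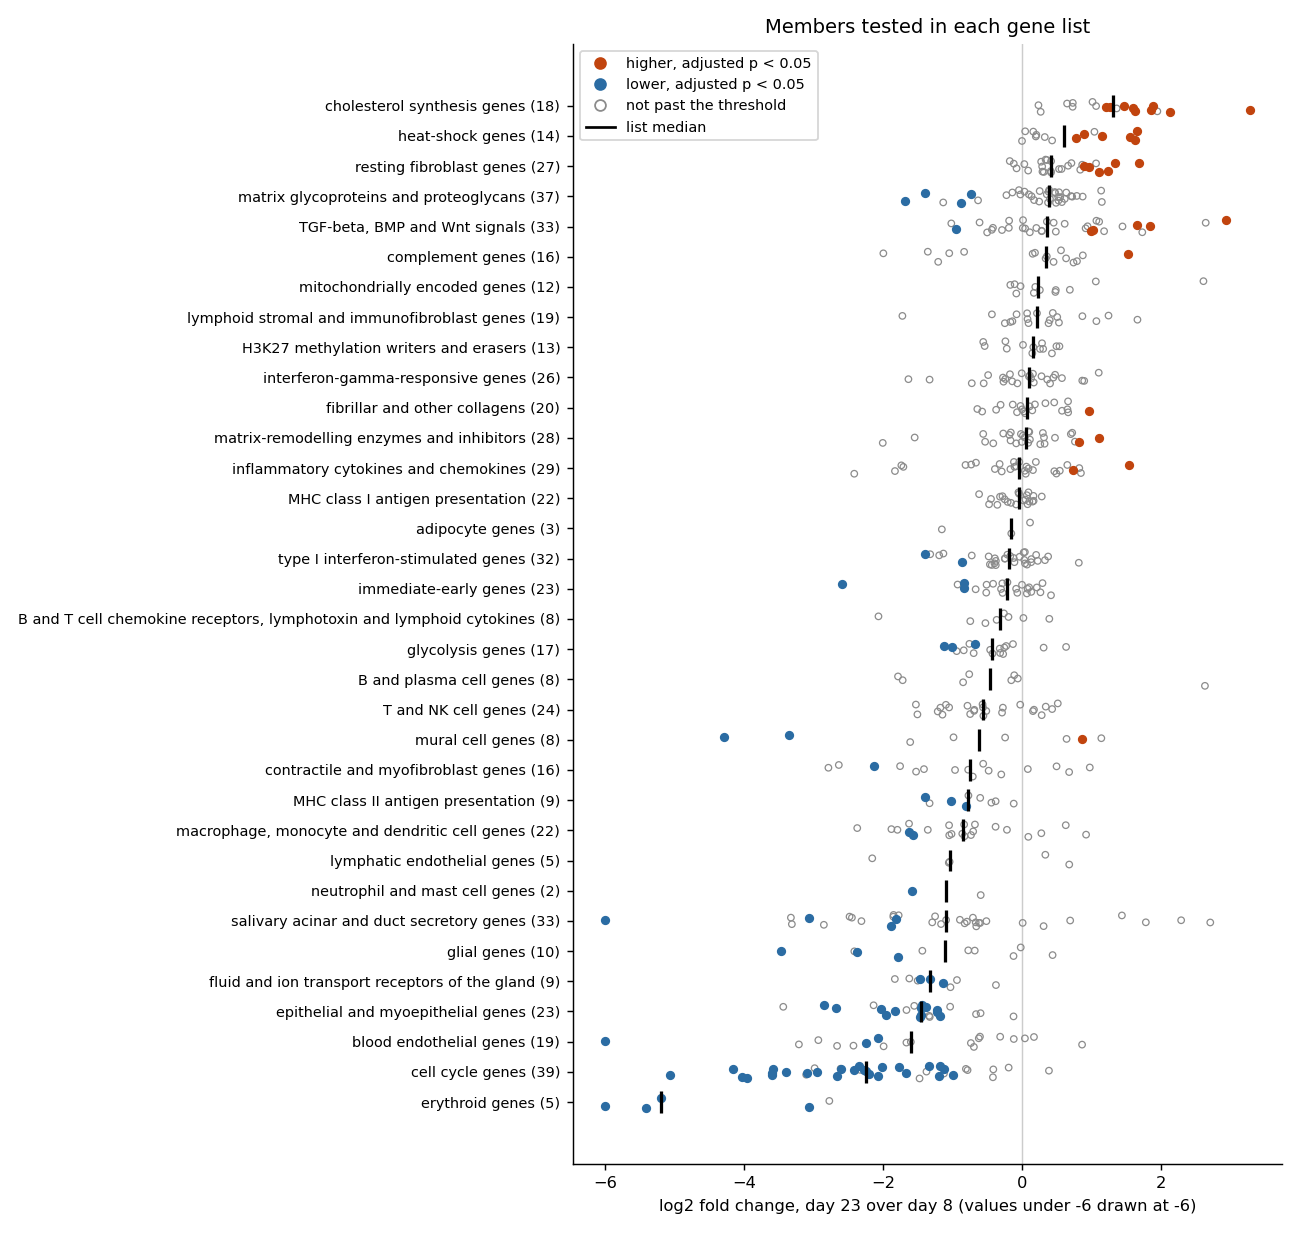
Each point is 1 tested member of a gene list, placed by its log2 fold change (day 23 over day 8), with the number of tested members in brackets. Filled points passed an adjusted p of 0.05 and vertical bars are list medians, which run between -5.20 for erythroid genes and 1.32 for cholesterol synthesis genes.

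Most cell cycle genes were lower at day 23. Of 39 tested members, 26 were called lower (66.7%, against 2.98% of all genes tested) and none higher, and the list's median log2 fold change was -2.25, against 0.03 for all genes tested. At an unadjusted p under 0.05, 32 members were lower and 0 higher. Summed over the list, the level was 334 to 464 CPM at day 23 and 884 to 1172 CPM at day 8. With 1 library left out, the number called lower was between 5 (without day 8 replicate 2) and 30 (without day 23 replicate 7), and 1 member was called higher without day 23 replicate 8. DESeq2 called 31 lower and edgeR without a filter 32. The list's median stayed between -2.42 and -2.04 over all settings tried.

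Genes of mitosis were among those called. Mki67 (ENSMUSG00000031004, chr7:135689784-135716361, GRCm38), which encodes the Ki-67 protein of dividing cells, had 12.3, 13.7 and 20.0 CPM at day 23, against 126, 164 and 100.4 CPM at day 8. The highest day 23 library was far below the lowest day 8 library, and the log2 fold change was -3.10 ± 0.26 (adjusted p = 0.00242). Cenpf (ENSMUSG00000026605, chr1:189640606-189688086), a kinetochore protein, had 3.08, 3.67 and 2.59 CPM at day 23, against 38.6, 46.6 and 30.6 CPM at day 8 (log2 fold change -3.59 ± 0.27, adjusted p = 0.00116). Top2a (ENSMUSG00000020914, chr11:98992943-99024189), the topoisomerase that untangles replicated DNA, had 5.03, 5.38 and 12.9 CPM at day 23, against 58.2, 71.5 and 44.5 CPM at day 8. Its day 23 replicate 9 was above the other day 23 libraries and still below every day 8 library, with a log2 fold change of -2.95 ± 0.37 (adjusted p = 0.00566). Tpx2, a spindle assembly factor, had 0.649, 2.73 and 2.80 CPM at day 23, against 22.3, 26.3 and 17.9 CPM at day 8 (log2 fold change -3.39 ± 0.43, adjusted p = 0.00614). Racgap1, a regulator of cytokinesis, had 1.14, 1.09 and 0.647 CPM at day 23, against 10.4, 17.4 and 12.6 CPM at day 8 (log2 fold change -3.74 ± 0.40, adjusted p = 0.00453). Both genes were among the 14 largest falls, for which the rule of choice required groups without overlap.

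Further mitotic genes were among the 14 largest falls. The spindle proteins Aspm, Hmmr and Prc1 and the cyclin Ccna2 had log2 fold changes of -4.06, -3.92, -3.19 and -3.60, with adjusted p-values of 0.0109, 0.0339, 0.00921 and 0.0136. These rose to 0.0744, 0.181, 0.0649 and 0.0935 without day 8 replicate 2. Ccnd1 (ENSMUSG00000070348, chr7:144929931-144939925), the cyclin of the passage out of G1, had 50.8, 52.6 and 62.1 CPM at day 23, against 174, 194 and 159 CPM at day 8, and its log2 fold change of -1.67 ± 0.17 (adjusted p = 0.00397) was smaller than those of the mitotic genes. Ccnd2, another D-type cyclin and the most abundant list member that was not called, had 154, 72.7 and 125 CPM at day 23, against 94.6, 88.0 and 84.4 CPM at day 8, with overlapping groups (adjusted p = 0.396). Hist1h1a, a linker histone made during DNA replication, had 2.76, 0.234 and 0.647 CPM at day 23, against 12.0, 11.2 and 9.82 CPM at day 8 (adjusted p = 0.0323, and 0.146 without day 8 replicate 2).

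The promoters of 2 of these genes are shown because the fallen genes moved together. Each run is the 250 bases before the start of transcription in RefSeq's table for GRCm38.p6, written 5′ to 3′ on the gene's own strand. Top2a lies at chr11:99024190-99024439, minus strand, and Mki67 at chr7:135716380-135716629, minus strand. Capitals mark CCAAT on either strand (the CCAAT box, read by NF-Y) and TTTGAA on either strand (the core of the cell cycle homology region).
Top2a: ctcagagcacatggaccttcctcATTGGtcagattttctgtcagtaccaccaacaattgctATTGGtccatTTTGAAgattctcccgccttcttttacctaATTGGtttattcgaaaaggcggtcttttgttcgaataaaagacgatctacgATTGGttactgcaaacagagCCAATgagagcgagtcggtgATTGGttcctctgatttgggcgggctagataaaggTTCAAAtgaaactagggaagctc
Mki67: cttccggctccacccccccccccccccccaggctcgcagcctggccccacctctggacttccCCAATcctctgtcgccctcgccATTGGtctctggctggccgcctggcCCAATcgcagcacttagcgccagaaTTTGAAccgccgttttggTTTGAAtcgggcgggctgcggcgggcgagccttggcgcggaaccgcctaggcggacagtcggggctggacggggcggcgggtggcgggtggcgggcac
The Top2a promoter held 6 CCAAT and 2 TTTGAA matches, and that of Mki67 held 3 and 2. Of the 26 cell cycle genes called lower, 21 were in the promoter table with 22 promoters, and 18 of those promoters (81.8%) held CCAAT, against 33.8% of all 32851 promoters. TTTGAA was in 7 of the 22 (31.8%), against 16.0% of all promoters. Over the whole cell cycle list, called or not, 24 of 33 promoters (72.7%) held CCAAT and 8 (24.2%) held TTTGAA. These motifs were chosen after the values were seen, and a match is a string of letters and not a measured binding site.

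**Figure D2:**
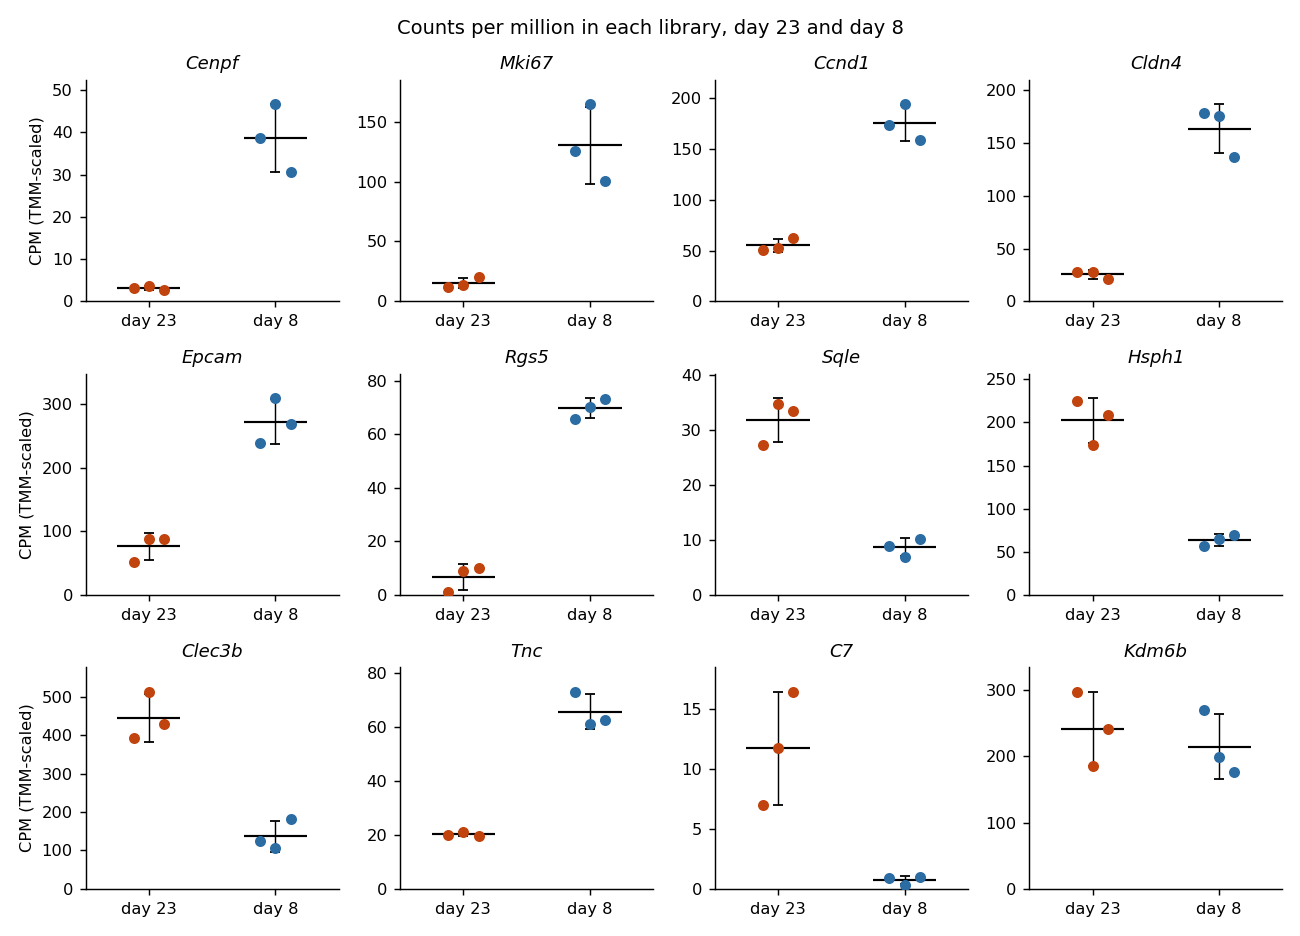
CPM (TMM-scaled, axis from 0) of 12 genes, with 1 point per library, day 23 in orange and day 8 in blue, horizontal bars for means and error bars for SD (n = 3 each). Cenpf, Mki67, Ccnd1, Cldn4, Epcam, Rgs5 and Tnc were lower in every day 23 library, Sqle, Hsph1, Clec3b and C7 were higher in every day 23 library, and the groups overlapped for Kdm6b.

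Many cholesterol synthesis genes were higher at day 23. Sterol-poor cells raise these genes together through SREBP transcription factors, which are held back by Insig proteins when cholesterol is plentiful. Of 18 tested members, 9 were called higher (against 1.84% of all genes tested), all 18 had a positive log2 fold change, and the median was 1.32. At an unadjusted p under 0.05, 14 were higher and 0 lower. The summed level was 562 to 768 CPM at day 23 and 265 to 347 CPM at day 8. The number called was 9 when any day 23 library was left out, 4 without day 8 replicate 3, and 1 without day 8 replicate 1 or replicate 2. The list's median stayed between 1.16 and 1.57 over all settings.

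Sqle (ENSMUSG00000022351, chr15:59315077-59331192), squalene epoxidase, had 27.2, 34.7 and 33.4 CPM at day 23, against 8.97, 7.01 and 10.2 CPM at day 8. Every day 23 library was above every day 8 library, and the log2 fold change was 1.87 ± 0.23 (adjusted p = 0.00543). Hmgcs1, which makes the HMG-CoA that feeds the pathway, had 123, 90.4 and 80.6 CPM at day 23, against 30.8, 34.3 and 40.7 CPM at day 8 (log2 fold change 1.47 ± 0.21, adjusted p = 0.00868, and 0.0717 without day 8 replicate 2). The groups of Hmgcs1 did not overlap. Fdps (ENSMUSG00000059743, chr3:89093588-89101959), farnesyl diphosphate synthase, had the list's largest change at 3.29 ± 0.60 (adjusted p = 0.0205, and 0.0944 without day 8 replicate 3). Its level was low, at 4.22, 18.4 and 9.27 CPM at day 23, against 0.882, 1.64 and 0.751 CPM at day 8, with day 23 replicate 8 well above the others, and reads shared with processed copies of the gene may have been counted elsewhere. Idi1, the isomerase of the same branch, had 10.1, 18.0 and 7.11 CPM at day 23, against 2.21, 2.57 and 3.27 CPM at day 8 (log2 fold change 2.14 ± 0.41, adjusted p = 0.0260, and 0.146 without day 8 replicate 2). Insig1, the sterol-sensing retention protein, had 94.6, 112 and 82.6 CPM at day 23, against 46.5, 53.5 and 74.0 CPM at day 8 and was not called (adjusted p = 0.0774).

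Promoters of 2 of these genes are printed in the same form because the members moved one way. Hmgcs1 lies at chr13:119690101-119690350, plus strand, and Mvk, the kinase of mevalonate, at chr5:114444019-114444268, plus strand. Capitals mark CCAAT on either strand and TCACNCCAC on either strand (a sterol regulatory element).
Hmgcs1: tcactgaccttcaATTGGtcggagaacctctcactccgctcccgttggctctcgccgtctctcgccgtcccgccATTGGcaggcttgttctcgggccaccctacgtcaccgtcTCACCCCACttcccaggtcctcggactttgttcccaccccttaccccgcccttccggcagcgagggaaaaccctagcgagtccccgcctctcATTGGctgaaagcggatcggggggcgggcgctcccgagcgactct
Mvk: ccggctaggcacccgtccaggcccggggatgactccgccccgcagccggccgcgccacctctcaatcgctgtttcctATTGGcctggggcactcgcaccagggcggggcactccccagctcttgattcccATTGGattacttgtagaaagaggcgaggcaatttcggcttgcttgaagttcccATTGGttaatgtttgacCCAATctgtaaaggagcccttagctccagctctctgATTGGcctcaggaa
The Hmgcs1 promoter held 1 match to TCACNCCAC and 3 to CCAAT, and that of Mvk held 5 to CCAAT. Of the 9 genes called higher, 5 were in the promoter table. All 5 of their promoters held CCAAT, and 1 of the 5 held TCACNCCAC, against 1.05% of all promoters. Over the whole list, 11 of 13 promoters held CCAAT and 1 of 13 held TCACNCCAC.

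Some heat-shock genes were higher at day 23. These chaperones refold damaged proteins and are induced by heat-shock factor during protein stress. Of 14 tested members, 6 were called higher (42.9%), all 14 had a positive log2 fold change, and the median was 0.61. The summed level was 5482 to 6356 CPM at day 23 and 4407 to 4568 CPM at day 8. The number called was between 3 (without day 8 replicate 2 or 3) and 7 (without day 23 replicate 7).

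Hsph1 (ENSMUSG00000029657, chr5:149614287-149636376), a large chaperone of the HSP110 group, had 224, 174 and 208 CPM at day 23, against 56.4, 65.5 and 69.6 CPM at day 8. The lowest day 23 library was well above the highest day 8 library, and the log2 fold change was 1.66 ± 0.17 (adjusted p = 0.00452). Hspa1b (ENSMUSG00000090877, chr17:34956436-34959238) had 474, 491 and 359 CPM at day 23, against 126, 158 and 142 CPM at day 8 (log2 fold change 1.64 ± 0.19, adjusted p = 0.00453). Hspa1a (ENSMUSG00000091971, chr17:34969190-34972156) had 254, 283 and 192 CPM at day 23, against 76.5, 87.2 and 84.3 CPM at day 8 (log2 fold change 1.56 ± 0.19, adjusted p = 0.00483). Hspa1a and Hspa1b encode nearly identical HSP70 proteins from neighbouring genes, so reads may have been divided between them and their changes are not independent. Dnaja1, an HSP40 co-chaperone, had 284, 293 and 309.5 CPM at day 23, against 158, 117 and 122 CPM at day 8 (log2 fold change 1.16 ± 0.17, adjusted p = 0.0105, and 0.101 without day 8 replicate 2). Hsp90ab1, the constitutive HSP90 and the most abundant member not called, had 1585, 1933 and 1518 CPM at day 23, against 1413, 1539 and 1534 CPM at day 8 (adjusted p = 0.629). Dnaja4, an HSP40 gene outside the list and among the 14 largest rises, had 32.9, 66.9 and 79.8 CPM at day 23, against 18.2, 12.9 and 14.0 CPM at day 8 (adjusted p = 0.0132, and 0.0842 without day 8 replicate 2).

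The Hspa1a promoter (chr17:34972157-34972406, minus strand) is shown with CCAAT on either strand and the 2 orientations of paired heat-shock half-sites, TTCNNGAA and GAANNTTC, in capitals.
Hspa1a: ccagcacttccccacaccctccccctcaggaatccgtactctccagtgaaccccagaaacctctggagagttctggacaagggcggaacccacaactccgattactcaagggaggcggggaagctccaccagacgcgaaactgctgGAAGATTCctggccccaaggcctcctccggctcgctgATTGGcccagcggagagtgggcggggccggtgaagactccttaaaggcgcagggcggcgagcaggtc
It held 1 pair of half-sites and 1 CCAAT. Of the 6 genes called higher, 5 were in the table with 9 promoters, and 5 of these 9 (55.6%) held a pair, against 12.8% of all promoters. Over the whole list, called or not, it was 8 of 16.

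Some genes of resting fibroblasts were higher at day 23. Of 27 tested members, 6 were called higher (22.2%), 24 had a positive log2 fold change, and the median was 0.42. At an unadjusted p under 0.05, 14 were higher and 0 lower. The number called was 0 without day 8 replicate 1 or 2, and between 2 and 7 when another library was left out. Clec3b (ENSMUSG00000025784, chr9:123150946-123157432), which encodes tetranectin, had 393, 513 and 429 CPM at day 23, against 123, 106 and 183 CPM at day 8. Every day 23 library had more than every day 8 library (log2 fold change 1.70 ± 0.23, adjusted p = 0.00772, and 0.0558 without day 8 replicate 2). Cd34, a surface sialomucin of resting fibroblasts and of endothelium, had 271, 262 and 219.9 CPM at day 23, against 109.6, 92.5 and 145 CPM at day 8 (log2 fold change 1.12 ± 0.20, adjusted p = 0.0196, and 0.143 without day 8 replicate 2). Igfbp6, which binds insulin-like growth factors, had 104, 141 and 120.5 CPM at day 23, against 40.8, 31.4 and 71.5 CPM at day 8 (adjusted p = 0.0352, and 0.158 without day 8 replicate 2). Scara5, a ferritin receptor, had 796, 611 and 899 CPM at day 23, against 427, 369 and 441 CPM at day 8 (adjusted p = 0.0343, and 0.225 without day 8 replicate 2). The groups did not overlap for any of these 4 genes.

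Some secreted Wnt, BMP and TGF-beta signals were higher at day 23. Of 33 tested members, 5 were called higher (15.2%, against 1.84% of all genes tested) and 1 lower (3.03%, against 2.98%), and the median was 0.36. Without day 8 replicate 1 or 2 no member was called, and 10 higher and 2 lower were called by DESeq2. Rspo3, which strengthens Wnt signals at LGR receptors, had 147, 129 and 142 CPM at day 23, against 80.4, 54.3 and 69.7 CPM at day 8 (log2 fold change 1.03 ± 0.18, adjusted p = 0.0193, and 0.146 without day 8 replicate 2). Rspo1, of the same family, had 37.5, 39.9 and 20.5 CPM at day 23, against 13.1, 7.87 and 10.2 CPM at day 8 (log2 fold change 1.66 ± 0.30, adjusted p = 0.0205, and 0.128 without day 8 replicate 2). Sfrp4, a secreted frizzled-related protein that binds Wnts, had 45.6, 98.1 and 113 CPM at day 23, against 21.9, 16.7 and 32.7 CPM at day 8 (log2 fold change 1.85 ± 0.35, adjusted p = 0.0258, and 0.133 without day 8 replicate 2). All 3 genes were higher in each day 23 library than in any day 8 library. Ltbp2, a microfibril protein related to the TGF-beta-binding proteins, was lower, with 29.2, 25.1 and 25.9 CPM at day 23, against 48.4, 53.4 and 53.1 CPM at day 8 (adjusted p = 0.0178, and 0.132 without day 8 replicate 2).

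The matrix glycoproteins called were lower at day 23. Of 37 tested glycoproteins and proteoglycans, 4 were called lower, 0 were called higher by edgeR and 9 were called higher by DESeq2, and 13 were higher at an unadjusted p under 0.05. The list's median was 0.39. Tnc (ENSMUSG00000028364, chr4:63959785-64047015), tenascin-C of wounds and inflamed stroma, had 20.1, 21.3 and 19.6 CPM at day 23, against 73.1, 61.2 and 62.8 CPM at day 8. The day 23 libraries were close to one another and all below day 8 (log2 fold change -1.69 ± 0.17, adjusted p = 0.00397). Fbn2, fibrillin-2 of new microfibrils, had 29.4, 25.7 and 22.8 CPM at day 23, against 79.0, 70.0 and 55.5 CPM at day 8 (adjusted p = 0.00868, and 0.0681 without day 8 replicate 2). Postn, periostin, had 174, 140.3 and 132 CPM at day 23, against 232, 296 and 293 CPM at day 8 (adjusted p = 0.0308, and 0.187 without day 8 replicate 2). Ccn1, a matricellular target of growth and stretch signals, had 201, 187 and 186 CPM at day 23, against 361, 287 and 307 CPM at day 8 (adjusted p = 0.0362, and 0.152 without day 8 replicate 2). Hspg2, perlecan of basement membranes and the most abundant member not called, had 5223, 3957 and 3786 CPM at day 23, against 3021, 2997 and 2914 CPM at day 8 (adjusted p = 0.150).

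Among 20 fibrillar and other collagens 1 was called higher (5.0%, against 1.84% of all genes tested), and the median was 0.08. Col5a3 had 1092, 965 and 1083 CPM at day 23, against 530.1, 587 and 491 CPM at day 8 (log2 fold change 0.96 ± 0.16, adjusted p = 0.0177, and 0.122 without day 8 replicate 3). Col3a1, the main collagen of loose connective tissue in this list, had 12479.7, 6013 and 9288 CPM at day 23, against 10512, 9754 and 10103 CPM at day 8, and the groups overlapped (adjusted p = 0.829). Of 28 matrix-remodelling genes, Serpine2 and P4ha1 were called higher (7.14%, against 1.84% of all genes tested). Serpine2, an inhibitor of thrombin and plasminogen activators, had 102, 92.8 and 101 CPM at day 23, against 51.5, 46.0 and 39.1 CPM at day 8 (adjusted p = 0.0108, and 0.0937 without day 8 replicate 2). P4ha1, which hydroxylates collagen prolines, had 144, 131 and 109.5 CPM at day 23, against 72.6, 68.2 and 76.8 CPM at day 8 (adjusted p = 0.0284, and 0.210 without day 8 replicate 2).

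Of 16 contractile genes 1 was called lower (6.25%, against 2.98% of all genes tested), and the median was -0.74. Without day 23 replicate 8 it was 9 called lower with a median of -1.51, and without day 23 replicate 7 it was 1 higher and 2 lower with a median of -0.45. Tagln, transgelin of smooth muscle and myofibroblasts, had 3.89, 19.1 and 7.11 CPM at day 23, against 35.4, 55.2 and 46.5 CPM at day 8 (adjusted p = 0.0384, and 0.161 without day 8 replicate 2). Of 23 immediate-early genes 3 were called lower. Fosl1, an AP-1 subunit, had 2.27, 2.96 and 1.29 CPM at day 23, against 17.6, 15.7 and 7.91 CPM at day 8 (log2 fold change -2.59 ± 0.43, adjusted p = 0.0160, and 0.0969 without day 8 replicate 2), while Jun, another AP-1 subunit, had 4748, 4558 and 3985 CPM at day 23, against 3946, 3595 and 3481 CPM at day 8 and was not called (adjusted p = 0.433). Of 17 glycolysis genes 3 were called lower: the enolase Eno1, the glucose transporter Slc2a1 and Gapdh had adjusted p-values of 0.0140, 0.0236 and 0.0374. Without day 8 replicate 2 these were 0.0937, 0.144 and 0.225. Slc2a1 averaged 25.6 ± 4.80 CPM at day 23 and 51.2 ± 2.58 CPM at day 8 (SD, n = 3 each).

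Few interferon genes were called. Of 32 type I interferon-stimulated genes, 2 were called lower (6.25%, against 2.98% of all genes tested), and the median was -0.19. Irf7, the interferon regulatory factor that amplifies type I interferon, had 57.1, 40.5 and 38.2 CPM at day 23, against 153, 85.3 and 119 CPM at day 8 (log2 fold change -1.40 ± 0.25, adjusted p = 0.0196, and 0.0766 without day 8 replicate 1). Rsad2, the antiviral enzyme viperin, had 28.7, 28.3 and 25.4 CPM at day 23, against 60.7, 39.4 and 49.2 CPM at day 8 (adjusted p = 0.0435, and 0.163 without day 8 replicate 3). Parp14, the most abundant member not called, had 212, 153 and 184 CPM at day 23, against 220.4, 126 and 152 CPM at day 8 (adjusted p = 0.770). Of the 25 promoters found for the type I list, 10 held the core letters of an interferon-stimulated response element on either strand, against 2.98% of all promoters. Of 26 interferon-gamma-responsive genes edgeR called 0, with 5 at an unadjusted p under 0.05, and DESeq2 called 2 lower. Over all 14713 genes tested, 3315 were at such a p, and DESeq2 called 958 lower. Of 22 MHC class I presentation genes edgeR called 0, with 2 at an unadjusted p under 0.05, and DESeq2 called 0.

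Some MHC class II genes were lower at day 23. Of 9 tested members, 3 were called lower, all 9 had a negative log2 fold change, and the median was -0.77. Cd74, the invariant chain that escorts class II molecules, had 122, 179 and 204 CPM at day 23, against 391, 311 and 323 CPM at day 8 (log2 fold change -1.02 ± 0.21, adjusted p = 0.0328, and 0.131 without day 8 replicate 2). H2-Aa, a class II alpha chain, had 39.4, 39.3 and 44.8 CPM at day 23, against 82.3, 66.6 and 65.4 CPM at day 8 (adjusted p = 0.0342, and 0.152 without day 8 replicate 2). Ctss, the protease cathepsin S that trims the invariant chain, had 22.9, 36.3 and 38.6 CPM at day 23, against 94.4, 89.7 and 73.1 CPM at day 8 (adjusted p = 0.0136, and 0.0803 without day 8 replicate 2). The groups did not overlap for these genes. Class II genes mark antigen-presenting cells, and of 22 tested genes of macrophages, monocytes and dendritic cells 2 were called lower, with a list median of -0.84. Lyz2, lysozyme of myeloid cells, had 18.0, 7.41 and 18.3 CPM at day 23, against 45.5, 44.8 and 41.1 CPM at day 8 (adjusted p = 0.0271, and 0.128 without day 8 replicate 2). Csf1r, their growth factor receptor, had 5.03, 7.80 and 15.1 CPM at day 23, against 26.8, 31.0 and 23.5 CPM at day 8 (adjusted p = 0.0410, and 0.203 without day 8 replicate 2). The summed level of that list went the other way, at 1588 to 2745 CPM at day 23 and 1162 to 1469 CPM at day 8, most of it from Apoe, an apolipoprotein that stromal cells express too, at 1149, 2370.0 and 1538 CPM at day 23, against 1021, 848 and 789.5 CPM at day 8 (adjusted p = 0.0761). The part of myeloid cells in the class II values was not tested.

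Genes of lymphoid stroma were not called. Immunofibroblasts of ectopic lymphoid tissue are known for the B cell chemokine Cxcl13, the T cell zone chemokines Ccl19 and Ccl21a, the B cell survival factor Tnfsf13b and the adhesion molecule Vcam1. Of 19 tested members edgeR called 0, with 5 higher at an unadjusted p under 0.05, and DESeq2 called 3 higher. Tnfsf13b, which encodes BAFF, came closest, with 28.2, 15.1 and 23.3 CPM at day 23, against 11.3, 6.15 and 10.3 CPM at day 8 (log2 fold change 1.25 ± 0.32, adjusted p = 0.0558). Cxcl13 had 10.7, 21.5 and 14.7 CPM at day 23, against 12.7, 5.51 and 7.57 CPM at day 8, with overlapping groups (adjusted p = 0.204), and Vcam1 had 185, 119 and 91.8 CPM at day 23, against 159, 90.9 and 119.8 CPM at day 8 (adjusted p = 0.878). Ccl19 was near the detection limit, with 14, 0 and 8 counts at day 23, against 19, 3 and 14 counts at day 8. Ccl21a did not pass the filter on low counts. It had 0, 55 and 0 counts at day 23, against 2, 1 and 12 counts at day 8, so nearly all came from day 23 replicate 8. Il6 had 59.2, 18.1 and 45.7 CPM at day 23, against 43.2, 17.6 and 27.3 CPM at day 8 (adjusted p = 0.569).

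Of 29 inflammatory cytokines and chemokines 2 were called higher (6.90%, against 1.84% of all genes tested) and 0 lower, and the median was -0.03. At an unadjusted p under 0.05, 4 were higher and 3 lower. Ccl11 (ENSMUSG00000020676, chr11:82057823-82062955), eotaxin, which attracts eosinophils, had 323, 671 and 383 CPM at day 23, against 179, 129.7 and 164 CPM at day 8 (log2 fold change 1.54 ± 0.28, adjusted p = 0.0196, and 0.126 without day 8 replicate 2). Il33, an alarmin held in the nuclei of stromal cells, had 208, 213 and 155 CPM at day 23, against 126, 103 and 116 CPM at day 8 (adjusted p = 0.0499, and 0.288 without day 8 replicate 2). Of 16 complement genes, 5 were higher and 4 lower at an unadjusted p under 0.05, and DESeq2 called 3 higher and 2 lower. In edgeR 1 was called higher (6.25%, against 1.84% of all genes tested) and 0 lower. This was Masp1, a protease of the lectin pathway, with 25.8, 22.1 and 31.5 CPM at day 23, against 10.6, 7.87 and 8.87 CPM at day 8 (adjusted p = 0.0119, and 0.0977 without day 8 replicate 2). C7 (ENSMUSG00000079105, chr15:4988762-5063740), a component of the membrane attack complex outside that list and the largest rise of the named genes, had 6.97, 11.8 and 16.4 CPM at day 23, against 0.882, 0.358 and 1.02 CPM at day 8. Groups without overlap were a condition for being named as a largest rise. The log2 fold change of C7 was 3.93 ± 0.51 (adjusted p = 0.00717).

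The histone demethylase of the study's title did not differ between the groups beyond their spread. Kdm6b (ENSMUSG00000018476, chr11:69398508-69413675) had 297, 185 and 241 CPM at day 23, against 269, 198 and 176 CPM at day 8, with overlapping groups and a log2 fold change of 0.17 ± 0.23 (adjusted p = 0.714). Kdm6a, the related demethylase on the X chromosome, had 48.5, 40.3 and 55.4 CPM at day 23, against 59.3, 58.8 and 48.6 CPM at day 8 (adjusted p = 0.532). Ezh2, which writes the mark that KDM6 enzymes remove, had 15.7, 23.5 and 14.2 CPM at day 23, against 25.2, 27.2 and 25.8 CPM at day 8 (log2 fold change -0.53 ± 0.23, adjusted p = 0.210). Of 13 tested writers and erasers of this mark edgeR called 0, with 4 at an unadjusted p under 0.05, and DESeq2 called 0.

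Other large rises fell outside the lists above. Angptl1 (ENSMUSG00000033544, chr1:156838562-156861078), an angiopoietin-like secreted protein, had 9.41, 15.1 and 12.3 CPM at day 23, against 1.54, 1.29 and 1.91 CPM at day 8 (log2 fold change 2.95 ± 0.36, adjusted p = 0.00543). Lhx8, a LIM homeobox transcription factor, had 12.2, 6.01 and 25.4 CPM at day 23, against 2.13, 1.64 and 1.84 CPM at day 8 (adjusted p = 0.0196, and 0.116 without day 8 replicate 2). Hmcn2, an extracellular hemicentin, had 65.0, 51.9 and 71.8 CPM at day 23, against 7.87, 6.58 and 22.1 CPM at day 8 (adjusted p = 0.0193, and 0.0842 without day 8 replicate 2). Tppp3, a tubulin polymerisation protein, had 74.4, 49.6 and 49.8 CPM at day 23, against 9.34, 10.5 and 20.2 CPM at day 8 (adjusted p = 0.0109, and 0.0717 without day 8 replicate 2). The rule that picked these 4 genes required groups without overlap. For Lhx8 the day 23 libraries ran between 6.01 and 25.4 CPM. Palm3, Prdm8, Alkal2, Prrt1, Ramp2 and Scin completed the 14 largest rises, with log2 fold changes between 1.89 and 3.02 and, without day 8 replicate 2, adjusted p-values between 0.116 and 0.225.

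Markers of other cell types moved between the groups, and in bulk samples fewer cells of a type and less RNA per cell cannot be told apart. Most epithelial and myoepithelial genes were lower at day 23: 13 of 23 tested were called lower (56.5%), all 23 had a negative log2 fold change, and the median was -1.45. Their summed level was 1078 to 1989 CPM at day 23 and 3851 to 4505 CPM at day 8. With 1 library left out, the number called lower was between 4 (without day 8 replicate 2) and 18 (without day 23 replicate 7 or 8), and DESeq2 called 20. Cldn4 (ENSMUSG00000047501, chr5:134945119-134946934), a tight junction claudin, had 27.4, 28.2 and 20.9 CPM at day 23, against 178, 176 and 137 CPM at day 8 (log2 fold change -2.68 ± 0.20, adjusted p = 0.00116). Epcam (ENSMUSG00000045394, chr17:87635979-87651129), the epithelial adhesion molecule, had 52.6, 88.9 and 88.4 CPM at day 23, against 239, 309.5 and 268 CPM at day 8 (log2 fold change -1.83 ± 0.23, adjusted p = 0.00607). Tfcp2l1, a transcription factor of duct epithelium, had 75.3, 102 and 113 CPM at day 23, against 343, 419 and 421 CPM at day 8 (log2 fold change -2.02 ± 0.20, adjusted p = 0.00397). Krt7, a duct keratin, had 47.8, 55.8 and 63.6 CPM at day 23, against 144, 153 and 158 CPM at day 8 (log2 fold change -1.45 ± 0.17, adjusted p = 0.00453). In each of these genes the day 23 libraries lay below all day 8 libraries. None of these markers was at 0 in any library. Ly6d, a surface protein of epithelial cells outside the list, had a log2 fold change of -3.31 ± 0.37 (adjusted p = 0.00453).

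The secreted proteins of the gland did not follow the epithelial markers as a whole. Mucl2, the most abundant of them, took 6.46%, 17.3% and 14.4% of counts at day 23, against 4.20%, 9.38% and 11.2% at day 8, and was not called (adjusted p = 0.463). Of 33 tested acinar and duct secretory genes, 4 were called lower, and the median was -1.09. The summed level was 75497 to 222994 CPM at day 23 and 57554 to 160380 CPM at day 8, so the sum and the median differ in sign, Mucl2 making up most of the sum. Ltf, lactoferrin, had 1 count in all at day 23 and 397 counts at day 8, and its level per scaled library was 222-fold lower at day 23 (exact 95% interval for counting error 39.6 to 8791). Lpo, lactoperoxidase, had 131, 280.5 and 246 CPM at day 23, against 673, 1004 and 746 CPM at day 8 (log2 fold change -1.88 ± 0.29, adjusted p = 0.0121, and 0.0695 without day 8 replicate 2). Crisp3, a secreted cysteine-rich protein, had 1.78, 14.0 and 4.31 CPM at day 23, against 29.9, 80.4 and 71.4 CPM at day 8 (adjusted p = 0.0284, and 0.123 without day 8 replicate 2). Of 9 genes for fluid and ion transport 3 were called lower, and the median was -1.32. Ano1, the acinar chloride channel, had 84.0, 144 and 123 CPM at day 23, against 239, 299.9 and 233 CPM at day 8 (adjusted p = 0.0263, and 0.145 without day 8 replicate 2).

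**Figure D3:**
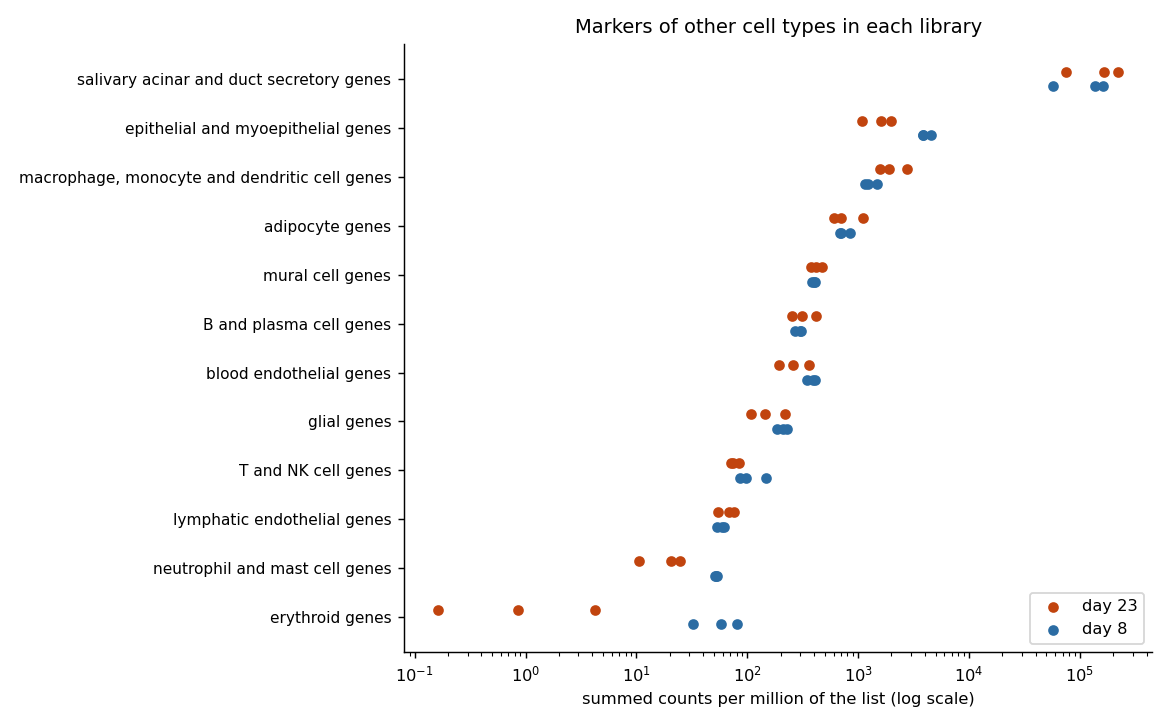
Summed CPM (log scale) of marker lists of other cell types, with 1 point per library, day 23 in orange above day 8 in blue. Epithelial, T and NK cell and erythroid sums were lower in every day 23 library than in any day 8 library. The neutrophil and mast cell sum was lower too, but it was mostly Kit, which other cells of the gland express. Secretory, blood endothelial and glial sums overlapped.

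Erythroid genes had the lowest median of the lists, with a summed level of 0.162 to 4.21 CPM at day 23 and 32.4 to 81.4 CPM at day 8. Of 5 tested members 4 were called lower, and the median was -5.20. The number called lower was 1 without day 8 replicate 1 and 5 without day 23 replicate 8. Hba-a2 (ENSMUSG00000069917, chr11:32296489-32297298), an alpha-globin, had 0 counts in every day 23 library and 15.1, 12.0 and 6.82 CPM at day 8, and was at least 88.2-fold lower at day 23 against a floor of 3 counts over the group. Hbb-bs, a beta-globin, had 0, 1.56 and 0 CPM at day 23, against 39.7, 27.9 and 15.8 CPM at day 8 (adjusted p = 0.0102, and 0.0545 without day 8 replicate 1). Globin genes are nearly identical copies, so their reads may be divided between them.

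Vascular markers were lower in part. Of 19 tested blood endothelial genes 3 were called lower and 0 higher, with 7 lower and 0 higher at an unadjusted p under 0.05, and the median was -1.60. The summed level overlapped, at 193 to 361 CPM at day 23 and 349 to 408 CPM at day 8, and the number called lower was 10 without day 23 replicate 9, 1 without day 8 replicate 3 and 0 without day 8 replicate 1 or 2. Selp, P-selectin of activated endothelium and platelets, had 2 counts in all at day 23 and 319 counts at day 8, a level 89.2-fold lower at day 23 (exact 95% interval for counting error 24.5 to 739.8, adjusted p = 0.00868, and 0.0558 without day 8 replicate 2). Cdh5, VE-cadherin, had 2.11, 3.43 and 10.3 CPM at day 23, against 21.8, 18.6 and 23.0 CPM at day 8 (adjusted p = 0.0431, and 0.157 without day 8 replicate 2). Of 8 mural cell genes 2 were called lower and 1 higher. Rgs5 (ENSMUSG00000026678, chr1:169655501-169695813), a G protein regulator of pericytes, had 1.14, 9.05 and 10.1 CPM at day 23, against 65.8, 70.0 and 73.3 CPM at day 8 (log2 fold change -3.35 ± 0.51, adjusted p = 0.0114, and 0.0558 without day 8 replicate 2). Rgs4, of the same family, had 0, 0.780 and 0 CPM at day 23, against 5.81, 7.30 and 9.01 CPM at day 8 (adjusted p = 0.0236, and 0.118 without day 8 replicate 2). Cspg4, the NG2 proteoglycan of pericytes and some fibroblasts, was higher, with 171, 129.7 and 138 CPM at day 23, against 75.4, 85.8 and 79.2 CPM at day 8 (adjusted p = 0.0263, and 0.151 without day 8 replicate 2). Abcc9, the pericyte potassium channel subunit that was the most abundant member not called, had 229, 168 and 197 CPM at day 23, against 144, 111 and 125 CPM at day 8 (adjusted p = 0.0718).

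Leukocyte genes were low in both groups. Of 24 tested T and NK cell genes edgeR called 0, with 4 lower at an unadjusted p under 0.05, and DESeq2 called 0. Their summed level was 71.5 to 84.3 CPM at day 23 and 86.9 to 147.7 CPM at day 8, and Ptprc, the pan-leukocyte phosphatase CD45, had 24.7, 14.7 and 28.2 CPM at day 23, against 49.1, 34.3 and 31.5 CPM at day 8 (adjusted p = 0.136). Of 8 tested B and plasma cell genes edgeR called 0, with 3 at an unadjusted p under 0.05, and DESeq2 called 1 lower. Immunoglobulin genes took 0.00938% ± 0.0126 of counts at day 23 and 0.00183% ± 0.000219 at day 8 (SD, n = 3 each), with p = 0.4 in the exact permutation test, 0.667 after adjustment. Of 17 neutrophil and mast cell genes 2 were tested, and Kit, a receptor of mast cells and of other cells of the gland, had 18.3, 9.52 and 23.9 CPM at day 23, against 49.2, 52.3 and 50.5 CPM at day 8 (adjusted p = 0.0238, and 0.118 without day 8 replicate 2). Of 10 tested glial genes 3 were called lower. Gfra3, a receptor subunit for artemin found on Schwann cells, had 0.487, 0.858 and 0.862 CPM at day 23, against 6.69, 10.7 and 7.78 CPM at day 8 (log2 fold change -3.47 ± 0.46, adjusted p = 0.00719, and 0.0717 without day 8 replicate 2). Sox10, a factor of glia and of acinar cells, had 35.0, 156 and 76.1 CPM at day 23, against 77.1, 113 and 102 CPM at day 8 (adjusted p = 0.903). The list medians of epithelial, endothelial, glial and erythroid genes were negative, as was that of the cell cycle genes. The summed levels of endothelial genes overlapped. So did those of glial genes, at 107 to 220 CPM at day 23 and 185 to 229 CPM at day 8. The part of these cell types in the fall of the cell cycle genes, and in the levels of any other list, was not tested.

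The levels of the leading genes over the whole series place both groups in time. Background in sensory receptor genes was 10.2 to 33.0 CPM in replicates 1 to 9 (3 hours, day 8 and day 23) and 318 to 1947 CPM in replicates 10 to 18 (uninfected, day 1 and day 2), so library set and time cannot be told apart where these sets are compared. Scaled over all 18 libraries, Mki67 averaged 14.9 ± 8.14 CPM in uninfected glands, 6.35 ± 2.39 CPM at 3 hours, 6.98 ± 2.22 CPM at day 1, 46.9 ± 4.41 CPM at day 2, 148 ± 36.6 CPM at day 8 and 16.9 ± 4.47 CPM at day 23 (SD, n = 3 each). Day 8 was thus the highest of the 6 group means. Epcam averaged 32.5 ± 17.2 CPM in uninfected glands, 111 ± 20.4 CPM at 3 hours, 20.3 ± 12.7 CPM at day 1, 10.8 ± 3.10 CPM at day 2, 309 ± 40.2 CPM at day 8 and 84.8 ± 23.4 CPM at day 23. Rgs5 averaged 7.50 ± 5.44 CPM at day 23 and 79.1 ± 4.33 CPM at day 8, and its mean in the other 4 groups was at most 6.96 CPM. For both genes as well, the day 8 mean was the highest.

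Sqle averaged 25.4 ± 1.27 CPM in uninfected glands, 17.8 ± 5.62 CPM at 3 hours, 10.9 ± 1.77 CPM at day 1, 11.4 ± 3.24 CPM at day 2, 9.89 ± 1.81 CPM at day 8 and 35.2 ± 4.63 CPM at day 23. Clec3b averaged 409.7 ± 53.9 CPM in uninfected glands, 592 ± 35.8 CPM at 3 hours, 33.9 ± 5.79 CPM at day 1, 23.6 ± 6.08 CPM at day 2, 156 ± 45.8 CPM at day 8 and 492 ± 72.8 CPM at day 23. Both genes were lower at days 1, 2 and 8 than in uninfected glands and at day 23. Tnc averaged 949 ± 203 CPM at day 2, 74.5 ± 7.25 CPM at day 8 and 22.5 ± 1.18 CPM at day 23, and Kdm6b averaged 2906 ± 56.1 CPM at 3 hours, 243 ± 54.8 CPM at day 8 and 266 ± 59.6 CPM at day 23. No test was run on these levels across the series.

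**Figure D4:**
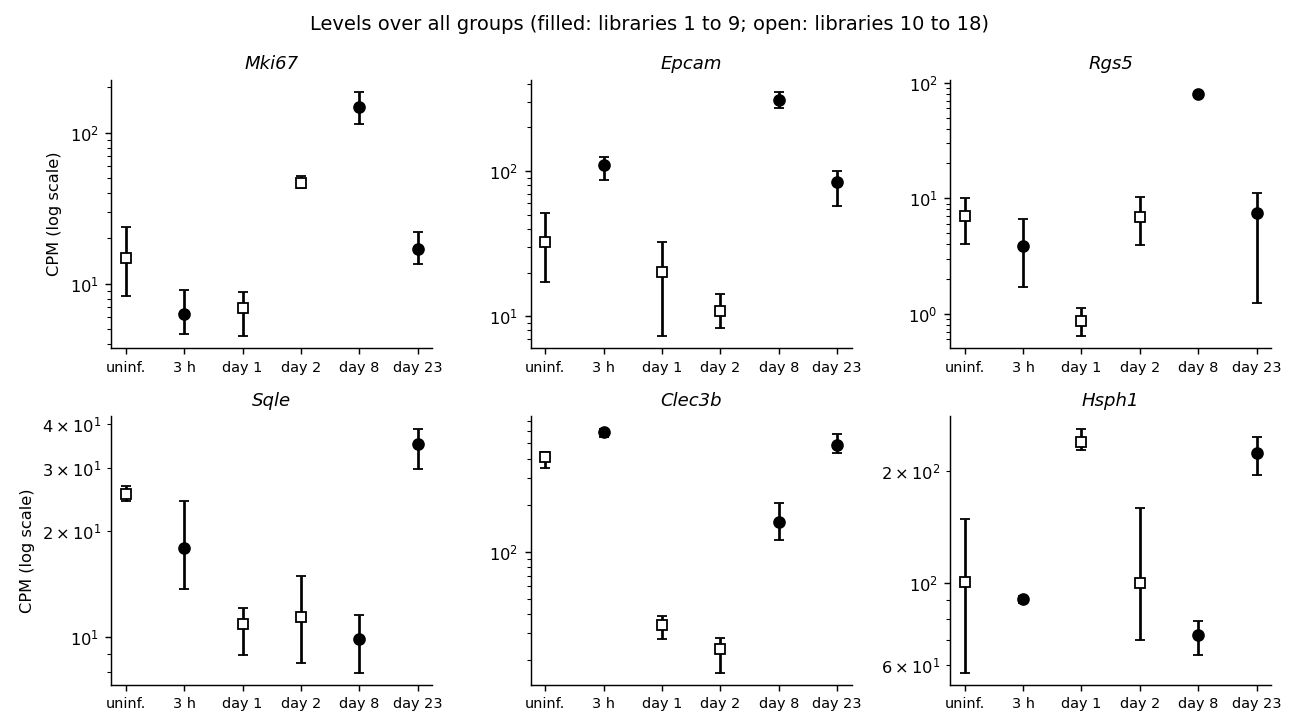
Mean CPM (log scale, TMM over all 18 libraries) of 6 genes in each group in order of time, with bars for the range over 3 libraries. Filled circles are groups from replicates 1 to 9 and open squares groups from replicates 10 to 18. Mki67, Epcam and Rgs5 were highest at day 8, and Sqle and Clec3b were higher at day 23 than at day 8.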

How the data were processed

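Per the labels, RNA from sorted gp38+ cells was turned into libraries from 10 ng of total RNA. The authors deposited raw counts per Ensembl gene, 1 file per library. Per the submitters' processing notes, FastQC, STAR, Subread and DESeq2 were used with mm10. Their versions, the annotation, strand setting and handling of reads with several matches are not given in the sources used here, so overlapping or near-identical genes may share reads. Gene names and positions come from GENCODE M21 on GRCm38 (55141 of 55401 identifiers matched, and the other 260 held 0.0217% of counts).

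The quasi-likelihood test of edgeR 4.0.16, run in R 4.3.3, was applied to the 6 libraries, with filterByExpr (minimum count 10, minimum total 15) and TMM. P-values were Benjamini-Hochberg adjusted over the 14713 genes that passed, with a threshold of 0.05. CPM values are scaled by TMM, and the SE is the log2 fold change divided by the root of F. The genes named are, in each direction, the 14 called genes of greatest change that averaged at least 10 CPM in the higher group and did not overlap, without predicted models and immunoglobulin or T cell receptor segments. To these were added up to 4 called members of each list with the lowest p, the most abundant uncalled member, and 12 genes always named. The lists and genes were chosen with earlier results of these data known, so list counts are descriptions. Shares of counts were compared by exact permutation tests. Fold bounds use a floor of 3 counts over a group. Because the reads carry no molecular identifiers, intervals and floors describe counting error alone. Alternatives were fits of 18 and 9 libraries, DESeq2 size factors, library totals, 2 other filters, DESeq2 1.42.0, limma-voom (limma 3.58.1) with and without library weights, and leaving out each library. The scripts were tested on simulated counts. Promoters were taken from RefSeq's GRCm38.p6 table, and motifs were sought on both strands in the 250 bases before the start, where the plan had included 50 bases after it. The labels name a mouse for each library. Some genes that the rule names are not reported here.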

Additional observations from a re-analysis of the deposited data

How the results depend on the processing

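The number of genes called depended on the fit. No gene called both in the main fit and in an alternative had the opposite sign, but the fits share libraries, so a reversal could hardly occur. In place of 708 genes (270 higher, 438 lower), fitting all 18 libraries gave 1465 (618 higher, 847 lower), fitting the 9 libraries of 3 hours, day 8 and day 23 gave 1557 (721 higher, 836 lower), no filter gave 1799 (733 higher, 1066 lower) and DESeq2 gave 1775 (817 higher, 958 lower). Library totals alone gave 139 genes higher, and limma-voom with library weights gave 502 higher, which was 54.6% of its calls. Its weights were 0.398 to 0.835 for day 23 and 1.10 to 2.71 for day 8 libraries. With 1 library left out the calls ran between 47 and 1447, those higher between 6 and 688, and those lower between 41 and 759. Of the 93 named genes called, 68 were called under every alternative that kept all libraries. Named genes that changed sign were all uncalled in the main fit. With 1 library left out their log2 fold changes ran from -0.32 to 1.22 for Ccl19, from -0.41 to 0.099 for Col3a1, from -0.22 to 0.88 for Cxcr4, from -0.14 to 0.18 for Eng, from -0.15 to 0.077 for H2-D1, from -0.020 to 0.36 for Kdm6b, from -0.18 to 0.28 for Lpl, from -0.35 to 0.0055 for mt-Co1, from -0.039 to 0.39 for Parp14, from -0.23 to 0.12 for Pdpn, from -0.82 to 0.26 for Sox10, from -0.23 to 0.32 for Vcam1 and from -0.18 to 0.0049 for Xbp1. Ccl19 was -1.23 and Cxcr4 -0.29 with limma-voom, Ccl19 -0.47 with library weights, and Eng -0.025 with library totals and -0.0036 with no filter. The share of counts on the 10 most abundant genes, 29.9% at day 23 and 29.3% at day 8, differed by -2.72 to 3.21 percentage points with 1 library left out. The causes were not tested. No paired analysis was possible because each library came from a mouse of its own. Depth limits genes of a few counts per library, the day 23 replicates 7 and 9 being the shallowest.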

Other observations

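The groups of genes in these paragraphs were put together after the values of all genes had been seen, so their counts describe what was found and support nothing further. Most genes of junctions between epithelial cells were lower at day 23, in the same libraries in which the epithelial markers were lower. Of 22 tested desmosome, hemidesmosome and tight junction genes, 16 were called lower and 1 higher, and the median log2 fold change was -1.40. Pkp1, a desmosome plaque protein, had 8.92, 10.1 and 6.68 CPM at day 23, against 39.4, 49.4 and 49.1 CPM at day 8, a log2 fold change of -2.40 ± 0.22 (adjusted p = 0.00313, and 0.0257 without day 8 replicate 2). Lama5, a laminin chain of basement membranes, had 18.2, 16.3 and 20.0 CPM at day 23, against 80.5, 78.3 and 63.3 CPM at day 8, a log2 fold change of -2.03 ± 0.18 (adjusted p = 0.00275, and 0.0257 without day 8 replicate 2). Ppl, periplakin, was the exception among the called genes, with 135, 130.4 and 134 CPM at day 23, against 58.5, 60.3 and 69.1 CPM at day 8 (adjusted p = 0.00868, and 0.0919 without day 8 replicate 2). Pkp1 and Lama5 were called whichever single library was left out. With 1 library left out, the number called lower was between 4 (without day 8 replicate 1 or 2) and 19 (without day 23 replicate 8), and it was 20 without a filter.

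Genes of hedgehog signalling and the primary cilium were higher at day 23 in part. Of 20 tested, 8 were called higher with a median of 0.82, and 3 were called with scaling by library totals. Without day 23 replicate 9 or any 1 day 8 library, edgeR called 0. The full set had 15 at an unadjusted p under 0.05 and DESeq2 called 13. Evc, a cilium protein needed for hedgehog signals, had 182, 98.6 and 151 CPM at day 23, against 72.7, 53.0 and 61.3 CPM at day 8 (adjusted p = 0.0276, and 0.181 without day 8 replicate 2), and Gli3, a transcription factor of the pathway, had 84.0, 67.0 and 100.4 CPM at day 23, against 53.5, 46.0 and 44.2 CPM at day 8 (adjusted p = 0.0459, and 0.254 without day 8 replicate 2). A mixed group of basement membrane genes and collagens outside the collagen list had 6 of 14 called higher and 1 lower, with a median of 0.67. The laminin chain Lamc3 was among those called higher, and the collagen called lower was Col9a3. It was 0 called higher without day 8 replicate 2 or 3, and 1 called higher without day 8 replicate 1 or day 23 replicate 9. Col6a5, a collagen VI chain, had 850.4, 327 and 630.3 CPM at day 23, against 246, 132 and 144 CPM at day 8 (adjusted p = 0.0284, and 0.156 without day 8 replicate 2), and Col4a3, a basement membrane collagen, had 72.2, 58.8 and 93.1 CPM at day 23, against 31.2, 33.5 and 33.7 CPM at day 8 (adjusted p = 0.0158, and 0.108 without day 8 replicate 2). Among 17 growth factors, Hbegf, an EGF receptor ligand, was called lower with 7.79, 9.99 and 6.25 CPM at day 23, against 38.3, 32.4 and 24.8 CPM at day 8 (adjusted p = 0.00772, and 0.0499 without day 8 replicate 2), and 6 were called higher, Angptl1 among them. Vegfa, the vascular growth factor, had 136, 192 and 210.4 CPM at day 23, against 93.2, 83.8 and 102 CPM at day 8 (adjusted p = 0.0323, and 0.209 without day 8 replicate 2), and Fgf7, a stromal growth factor for epithelium, had 76.7, 115 and 74.4 CPM at day 23, against 51.4, 37.0 and 44.1 CPM at day 8 (adjusted p = 0.0358, and 0.213 without day 8 replicate 2). Leaving out a day 8 library or day 23 replicate 9 left 1 of the growth factors called higher.

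Families taken whole by name gave 8 of 56 replication-dependent histone genes called lower, with a median of -1.24, and 6 of 81 cytosolic ribosomal protein genes called lower, with a median of -0.25. The shares were 14.3% and 7.41%, against 2.98% of all genes tested. Hist1h1b, a linker histone, had 4.70, 2.81 and 4.96 CPM at day 23, against 28.6, 46.6 and 29.1 CPM at day 8 (adjusted p = 0.00442, and 0.0257 without day 8 replicate 2). Leaving out a day 8 library left 1 histone gene and 0 ribosomal protein genes called. Without day 23 replicate 7 it was 13 lower and 3 higher for histone genes and 17 lower and 5 higher for ribosomal protein genes, and without day 23 replicate 8 it was 19 and 12 lower. Of 17 circadian clock genes edgeR called 0, with 5 at an unadjusted p under 0.05, and DESeq2 called 2 higher.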
